A study of Homo sapiens with 6 samples.

Results

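Long intergenic noncoding RNA genes with a LINC symbol were compared between 2 subclones of the DLD-1 line. The genes were selected on measured values: each symbol was LINC followed by digits only (a gene that the selection leaves out is not described), each gene was read from its brightest probe set over the 6 arrays, and its mean log2 intensity had to be at least 6 in DLD-1Δα-Cat or in DLD-1α-Cat. Of 838 such LINC genes among 19775 genes with a single symbol, 151 met this level, which was 18.0% of the LINC genes against 66.5% of all genes. In 130 of the 151 the mean was at least 6 in both subclones, in 12 only in DLD-1Δα-Cat and in 9 only in DLD-1α-Cat. The other 687 LINC genes stayed under 6 in both. A level of 6 lies just under the array medians of all probe sets, 6.12 to 6.15, and no detection calls were used here. Just inside the limit were LINC02708, with means of 6.01 in DLD-1Δα-Cat, against 5.95 in DLD-1α-Cat, and LINC02012, with 6.002 in DLD-1Δα-Cat, against 5.71 in DLD-1α-Cat. Just outside were LINC01231, with 5.86 in DLD-1Δα-Cat, against 5.997 in DLD-1α-Cat, and LINC01988, with 5.91 in DLD-1Δα-Cat, against 5.99 in DLD-1α-Cat.

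DLD-1 is a human colorectal cancer cell line, and both groups were subclones of it that received no treatment and spent 96 h in a gel of collagen I at 1 mg/ml, the main fibre of connective tissue. Affymetrix oligonucleotide arrays, 1 per sample, measured 3 samples of DLD-1Δα-Cat and 3 of DLD-1α-Cat. What Δα-Cat stands for is not written out in the labels, nor whether separate cultures gave the 3 samples of a group, so each p reflects the spread among these arrays alone, and that spread may be technical. Each group is 1 subclone, so what belongs to the clone and what belongs to its label cannot be told apart. CTNNA1, the gene of the junction protein αE-catenin, read 11.38, 11.30 and 11.01 in DLD-1Δα-Cat, against 12.73, 12.74 and 12.79 in DLD-1α-Cat (difference -1.52, SE 0.119, limma adjusted p = 0.000838). CTNNA1 was read from the brightest of its 5 probe sets, which is of a type that can also bind other transcripts. The 8 colon epithelium markers lay between 9.72 and 14.16 on all arrays. Of the markers of other cell types, 6 fibroblast genes read 2.91 to 7.58, 3 endothelial genes 4.92 to 6.57 and the 2 leukocyte genes measured 2.94 to 3.95. None of these 19 marker genes passed limma's test, and 1 had an unadjusted p under 0.05.

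Long noncoding RNAs are transcripts that are not known to be translated into long proteins. Many are capped, spliced and polyadenylated like messenger RNAs, and they act in many ways: on chromatin beside their own gene, as scaffolds for proteins, by binding microRNAs, or not as RNA at all where only the act of transcription matters. The LINC symbol with a number is given to those that lie between protein-coding genes and have no better name, so the genes form a naming class and not a family of shared sequence or function. As a class they are known for low levels and for expression that differs from cell type to cell type. All 151 matched a RefSeq gene (assembly GRCh38.p14) that is annotated as a long noncoding RNA, and 21 carry an older open-reading-frame symbol there from the time when they were thought to code for protein.

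The regions around the starts of the genes with the largest differences are shown because the 3 that passed the test as lower shared features that the selection did not use. These features are common in other windows too, with the shares given below. RefSeq gave a promoter window, 250 bases before to 50 bases after the first listed start, for 120 of the 151 genes. Windows are written 5′ to 3′ on the strand of the gene in GRCh38.p14. Capitals mark the CCAAT box (CCAAT, or ATTGG on the other strand) and the GC box (GGGCGG, or CCGCCC on the other strand). The first 3 genes were lower in DLD-1Δα-Cat, at chr7:130913214-130913513 (plus strand), chr13:106376314-106376613 (plus strand) and chr6:44000335-44000634 (plus strand).
LINC00513: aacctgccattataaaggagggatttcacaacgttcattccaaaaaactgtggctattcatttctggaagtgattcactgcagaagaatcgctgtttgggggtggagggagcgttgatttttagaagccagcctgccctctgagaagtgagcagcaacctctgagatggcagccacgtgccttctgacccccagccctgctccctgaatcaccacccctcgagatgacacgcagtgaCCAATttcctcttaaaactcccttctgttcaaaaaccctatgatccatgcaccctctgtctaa
LINC00460: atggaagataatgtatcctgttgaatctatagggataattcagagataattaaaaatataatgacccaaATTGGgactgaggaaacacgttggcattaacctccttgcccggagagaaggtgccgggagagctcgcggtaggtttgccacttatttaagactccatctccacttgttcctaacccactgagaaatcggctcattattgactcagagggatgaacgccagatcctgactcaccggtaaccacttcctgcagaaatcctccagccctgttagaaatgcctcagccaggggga
LINC03040: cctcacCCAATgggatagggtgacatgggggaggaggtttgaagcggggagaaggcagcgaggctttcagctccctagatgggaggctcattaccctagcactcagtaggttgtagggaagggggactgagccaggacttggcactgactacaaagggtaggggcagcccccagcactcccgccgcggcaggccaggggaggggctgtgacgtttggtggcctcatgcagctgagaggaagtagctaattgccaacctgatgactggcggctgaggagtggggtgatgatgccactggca
The next 3 had the largest positive differences among the genes at 6 or more in both subclones, at chr1:159960974-159961273 (plus strand), chr11:64448807-64449106 (plus strand) and chrX:45851441-45851740 (minus strand).
LINC01133: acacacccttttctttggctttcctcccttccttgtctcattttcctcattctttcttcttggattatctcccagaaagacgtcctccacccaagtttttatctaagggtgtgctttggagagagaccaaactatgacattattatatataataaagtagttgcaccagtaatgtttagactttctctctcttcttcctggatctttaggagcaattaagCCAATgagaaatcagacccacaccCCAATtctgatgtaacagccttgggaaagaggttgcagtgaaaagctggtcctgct
LINC02724: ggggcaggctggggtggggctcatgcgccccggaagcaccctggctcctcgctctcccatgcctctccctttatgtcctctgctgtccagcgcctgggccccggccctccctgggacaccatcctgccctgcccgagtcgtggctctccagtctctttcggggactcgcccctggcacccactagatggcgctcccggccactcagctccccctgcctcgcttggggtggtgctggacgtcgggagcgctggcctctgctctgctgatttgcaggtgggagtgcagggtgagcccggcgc
LINC02595: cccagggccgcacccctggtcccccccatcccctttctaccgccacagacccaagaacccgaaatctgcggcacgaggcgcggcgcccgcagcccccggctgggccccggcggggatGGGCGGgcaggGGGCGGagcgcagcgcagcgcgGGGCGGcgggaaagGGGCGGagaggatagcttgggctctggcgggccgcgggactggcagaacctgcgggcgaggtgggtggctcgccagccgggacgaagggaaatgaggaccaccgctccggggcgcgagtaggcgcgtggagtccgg
The last, at chr18:6929820-6930119 (minus strand), was the largest difference of all 151 and reached 6 in DLD-1Δα-Cat only.
LINC00668: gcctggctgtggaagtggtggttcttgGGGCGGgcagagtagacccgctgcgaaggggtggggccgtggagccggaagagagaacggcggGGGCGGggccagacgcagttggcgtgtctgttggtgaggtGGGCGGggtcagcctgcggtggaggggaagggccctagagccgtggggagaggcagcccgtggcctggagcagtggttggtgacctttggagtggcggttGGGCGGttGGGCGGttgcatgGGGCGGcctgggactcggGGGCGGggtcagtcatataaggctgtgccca

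These windows differed in base composition. LINC00513, LINC00460 and LINC03040 held 6, 8 and 7 CpG dinucleotides, each with 1 CCAAT box and no GC box. LINC01133 held 1 CpG and 2 CCAAT boxes, LINC02724 17 CpG and neither box, LINC02595 36 CpG and 4 GC boxes, and LINC00668 20 CpG and 7 GC boxes. Across the 10 of 11 genes that passed the test as higher in DLD-1Δα-Cat and had a window, the median was 18.5 CpG (1 to 36), 7 held a GC box and 4 a CCAAT box. Across the 3 lower ones it was 7 CpG (6 to 8), 0 held a GC box and all 3 a CCAAT box. The 89 genes at 6 or more in both subclones that had a window and did not pass had a median of 11 CpG. A GC box was in 46.1% of them and a CCAAT box in 40.4%. Of all 27305 promoter windows, 44.6% held a GC box and 35.7% a CCAAT box, with a median of 14 CpG. Of the windows of the 151 genes, 44.2% and 39.2% held these boxes, with a median of 11 CpG, while the 467 windows of LINC genes under 6 had a median of 4 CpG and a GC box in 17.1%. A match is a run of letters and not a measured binding site, and with 10 and 3 windows the shares are only described.

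Further motifs were searched on both strands. The TATA box (TATAAA) was in 13.3% of the windows of the 151 genes and in 12% of all windows. The E-box bound by SNAI and ZEB factors (CACCTG) was in 26.7% of these windows and in 20.6% of all, and the E-box CACGTG in 6.67% and 7.43%. The TCF/LEF motif (CTTTGAT), through which β-catenin acts, was in 0.833% and 2.64%, and the TEAD motif (CATTCCA) in 5% and 4.20%. The AP-1 motif (TGAGTCA) was in 5.83% and 4.92%, and the CRE motif (TGACGT) in 10.8% and 8.32%. Beside its CCAAT box, LINC00513 held the TATA box, the TEAD motif and the E-box of the kind CACGTG, LINC00460 the AP-1 motif and LINC03040 the CRE motif.

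Among the 130 genes at 6 or more in both subclones, 11 passed the test as higher in DLD-1Δα-Cat and 3 as lower. This was 8.46% and 2.31% of them, against 4.17% and 2.29% of all 12519 genes at that level, and against 3.84% and 1.67% of all 19775 genes tested. The test was limma's moderated test on log2 values, adjusted by Benjamini-Hochberg over all 19775 genes with a threshold of 0.05. Differences are given in log2 units as DLD-1Δα-Cat minus DLD-1α-Cat, so a positive one means higher in DLD-1Δα-Cat. The median difference of the 130 was 0.06 (0.057), with 56.2% of them positive, beside 0.01 (0.005) and 50.9% for all genes at that level. There was no overlap between the arrays of both subclones in 43 of the 130 (33.1%), near the 32.5% of all genes at that level. In 35 of these 43 (81.4%) DLD-1Δα-Cat was the higher. The same held for 2197 of the 4064 non-overlapping genes of all kinds (54.1%). Among other long noncoding RNA genes without overlap it held for 167 of 202 (82.7%), and among protein-coding genes for 1965 of 3773 (52.1%). The differences of the 130 ran from -1.69 to 1.70, and 100 of them lay under 0.5 in either direction. In this RNA of whole cultures, fewer cells that express a gene and less RNA per cell cannot be told apart.

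The count of higher genes was 6, 3 and 6 without DLD-1Δα-Cat replicate 1, 2 and 3, and 3 without DLD-1α-Cat replicate 3. The count of lower genes was 1 without DLD-1α-Cat replicate 3. The log2 ratio between the 3' and 5' control probe sets for β-actin, a reading of RNA integrity, moved with the groups: it was 5.07 to 5.38 in DLD-1Δα-Cat, against 4.36 to 4.89 in DLD-1α-Cat. For GAPDH the same ratio overlapped between the groups, at 0.685 to 0.819 in DLD-1Δα-Cat, against 0.506 to 0.794 in DLD-1α-Cat. In a limma fit with the β-actin ratio as a covariate, chosen after seeing the data, 0 genes passed in either direction. The higher genes of the fit reported here kept their sign, from 0.39 (LINC02606) to 2.10 (LINC01133). So did the lower ones, from -1.37 (LINC00513) to -0.99 (LINC03040). At an unadjusted p under 0.05, the covariate fit had 17 higher and 6 lower. In the fit reported here, 33 were higher and 7 lower at that unadjusted p. Shares of all genes at an unadjusted p are not given, here or below, so such counts cannot be set against them.

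**Figure D1:**
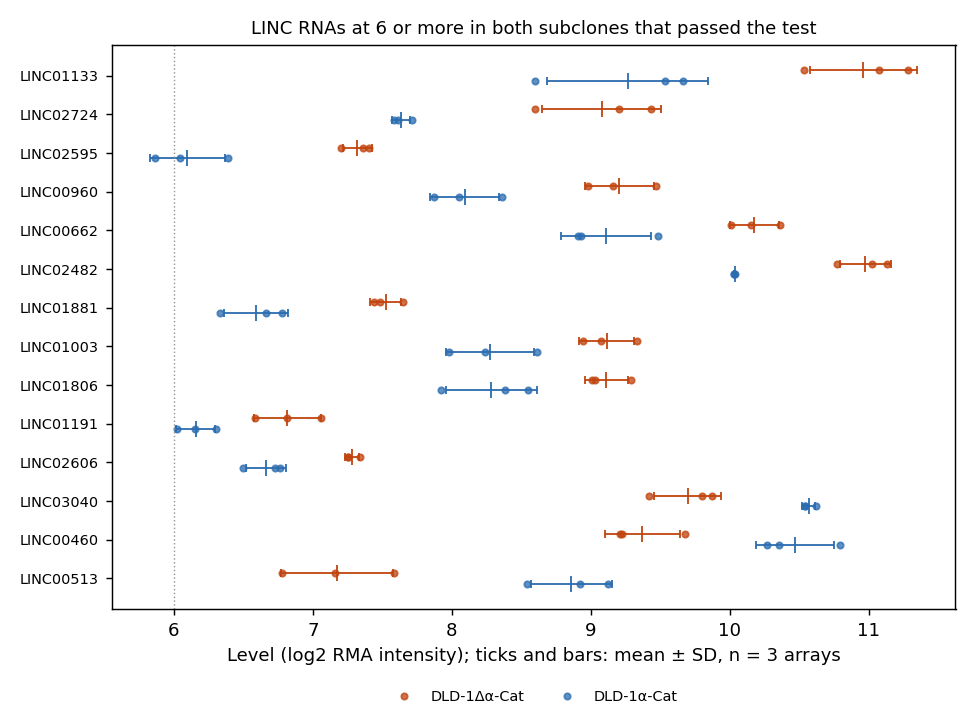
Level (log2 RMA intensity) of the 14 LINC RNAs that passed the test, with DLD-1Δα-Cat in orange and DLD-1α-Cat in blue; points are arrays, ticks and bars are the mean ± SD (n = 3 arrays). In none of the 14 is there an overlap between the subclones, and the 3 lowest rows are the genes lower in DLD-1Δα-Cat.

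LINC01133, an RNA reported to bind the splicing factor SRSF6 in colorectal cancer cells, had the largest increase among the LINC genes at 6 or more in both subclones. It read 10.53, 11.07 and 11.28 in DLD-1Δα-Cat, against 8.60, 9.53 and 9.66 in DLD-1α-Cat. The lowest DLD-1Δα-Cat array was 0.87 above the highest DLD-1α-Cat array, and replicate 1 was the lowest array in both subclones. The difference was 1.70 (SE 0.307, adjusted p = 0.0228), a fold of 3.25. It lost the call without DLD-1Δα-Cat replicate 2 (adjusted p = 0.0870), without DLD-1Δα-Cat replicate 3 (0.0786) and without DLD-1α-Cat replicate 3 (0.0552). A second, dim probe set of the gene differed by 0.40 (adjusted p = 0.142).

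LINC02724 read 9.43, 9.20 and 8.60 in DLD-1Δα-Cat, against 7.58, 7.71 and 7.61 in DLD-1α-Cat. The DLD-1α-Cat arrays were tightly grouped and the spread lay in DLD-1Δα-Cat. The difference was 1.44 (SE 0.203, adjusted p = 0.00923). Among the fits without 1 array, it failed only in that without DLD-1α-Cat replicate 3 (adjusted p = 0.0534). LINC02595, on the X chromosome, read 7.20, 7.40 and 7.36 in DLD-1Δα-Cat, against 6.04, 6.39 and 5.86 in DLD-1α-Cat. All 3 DLD-1Δα-Cat arrays were well above the limit of 6, around which the DLD-1α-Cat arrays lay. Its difference of 1.22 (SE 0.150, adjusted p = 0.00532) passed in each of the 6 fits that left out 1 array.

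LINC00960 read 9.47, 9.16 and 8.98 in DLD-1Δα-Cat, against 7.87, 8.36 and 8.05 in DLD-1α-Cat (difference 1.11, SE 0.172, adjusted p = 0.0132). It was the only 1 of the 14 with 3 probe sets that all passed in the fit of every probe set, since its further ones differed by 0.93 (adjusted p = 0.0434) and 0.74 (adjusted p = 0.0149). The call was lost without DLD-1Δα-Cat replicate 2 (adjusted p = 0.0504) and without DLD-1α-Cat replicate 3 (0.0697). LINC00662, reported as raised in several cancers, read 10.15, 10.36 and 10.01 in DLD-1Δα-Cat, against 8.93, 9.48 and 8.91 in DLD-1α-Cat (difference 1.07, SE 0.179, adjusted p = 0.0181). Replicate 2 was the highest array in both subclones. Its 4 further probe sets were all higher in DLD-1Δα-Cat, by 0.38, 0.61, 0.63 and, for a dim one, 0.11, and none of them passed. The gene lost the call without DLD-1Δα-Cat replicates 1 (adjusted p = 0.0566) and 2 (0.0733) and without DLD-1α-Cat replicate 3 (0.0819).

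The DLD-1α-Cat arrays of LINC02482 were almost equal. It read 11.13, 10.77 and 11.02 in DLD-1Δα-Cat, against 10.04, 10.03 and 10.03 in DLD-1α-Cat (difference 0.94, SE 0.116, adjusted p = 0.00540). The call was kept in each of the 6 fits without 1 array, and a second probe set differed by 0.90 (adjusted p = 0.0107). LINC01881 read 7.44, 7.65 and 7.48 in DLD-1Δα-Cat, against 6.33, 6.78 and 6.66 in DLD-1α-Cat (difference 0.93, SE 0.138, adjusted p = 0.0114). Among the fits without 1 array, it lost the call only in that without DLD-1Δα-Cat replicate 2 (adjusted p = 0.0523).

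The other 4 higher genes were smaller and less steady. LINC01003 read 9.33, 8.94 and 9.07 in DLD-1Δα-Cat, against 8.61, 8.24 and 7.98 in DLD-1α-Cat (difference 0.83, SE 0.180, adjusted p = 0.0427). LINC01806 read 9.01, 9.03 and 9.29 in DLD-1Δα-Cat, against 8.38, 8.55 and 7.92 in DLD-1α-Cat (difference 0.83, SE 0.176, adjusted p = 0.0407). Each passed in 1 of the 6 fits without 1 array, with adjusted p up to 0.130 and 0.131. LINC02606 read 7.25, 7.34 and 7.25 in DLD-1Δα-Cat, against 6.76, 6.73 and 6.50 in DLD-1α-Cat (difference 0.62, SE 0.107, adjusted p = 0.0200), and passed in 2 of the 6, with adjusted p up to 0.0940. LINC01191 read 7.06, 6.81 and 6.58 in DLD-1Δα-Cat, against 6.15, 6.02 and 6.30 in DLD-1α-Cat (difference 0.66, SE 0.146, adjusted p = 0.0462), and passed in 0 of the 6, with adjusted p from 0.0509 to 0.146. Its 2 further probe sets were dim and pointed the other way, by -0.08 and -0.30, and with the mean of its probe sets the difference was 0.10 (0.0952). With the replicate number as a block, LINC01806 (adjusted p = 0.0786) and LINC01191 (adjusted p = 0.0719) lost the call.

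LINC00513 had the largest decrease and also the most stable one. This RNA, reported to raise type I interferon signalling, read 7.58, 6.78 and 7.16 in DLD-1Δα-Cat, against 9.12, 8.54 and 8.92 in DLD-1α-Cat. Replicate 2 was the lowest array in both subclones, and the highest DLD-1Δα-Cat array was 0.96 below the lowest DLD-1α-Cat array. The difference of -1.69 (SE 0.227, adjusted p = 0.00775), a fold of 3.22, passed in each of the 6 fits without 1 array. A second, dim probe set differed by -0.17.

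LINC00460, reported to promote growth and spread of colorectal and other carcinomas, read 9.68, 9.21 and 9.22 in DLD-1Δα-Cat, against 10.79, 10.35 and 10.27 in DLD-1α-Cat (difference -1.10, SE 0.186, adjusted p = 0.0185). Replicate 1 was the highest array of each subclone. Its second probe set was also lower, by 0.63 on the log2 scale (difference -0.63, adjusted p = 0.159), and the call was lost without DLD-1Δα-Cat replicates 2 (adjusted p = 0.0761) and 3 (0.0705) and without DLD-1α-Cat replicate 3 (0.0534). LINC03040, whose older symbol is C6orf223, read 9.42, 9.87 and 9.80 in DLD-1Δα-Cat, against 10.54, 10.62 and 10.54 in DLD-1α-Cat (difference -0.87, SE 0.135, adjusted p = 0.0132). Its brightest probe set is of a type that can also bind other transcripts, and its second probe set differed by -0.83 (adjusted p = 0.0723). Among the fits without 1 array, LINC03040 lost the call only in that without DLD-1α-Cat replicate 3 (adjusted p = 0.0600).

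Of the 14 genes, 9 had further probe sets, 14 in all. Of these 14 probe sets, 12 pointed the same way as the brightest one, the exceptions being the dim pair of LINC01191, and 3 passed. All 9 with a level of at least 6 pointed the same way. Over all 151 genes there were 102 further probe sets in 61 genes, and 5 passed. The share of all probe sets that passed is not given, so these counts cannot be set against it. The remaining passing probe sets belong to genes whose brightest probe set did not pass. The further probe set of LINC00938 read 7.85, 8.14 and 7.58 in DLD-1Δα-Cat, against 6.53, 6.41 and 6.79 in DLD-1α-Cat (difference 1.28, SE 0.170, adjusted p over all probe sets 0.00932), while its brightest set differed by 0.51 (adjusted p = 0.107). The further probe set of LINC02551 read 6.08, 5.58 and 4.88 in DLD-1Δα-Cat, against 2.69, 3.09 and 2.93 in DLD-1α-Cat (difference 2.61, SE 0.281, adjusted p over all probe sets 0.00409), while its brightest set differed by 0.31 (adjusted p = 0.312). The probe sets of a gene can lie on different exons or isoforms, and which part each one reads was not tested.

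**Figure D2:**
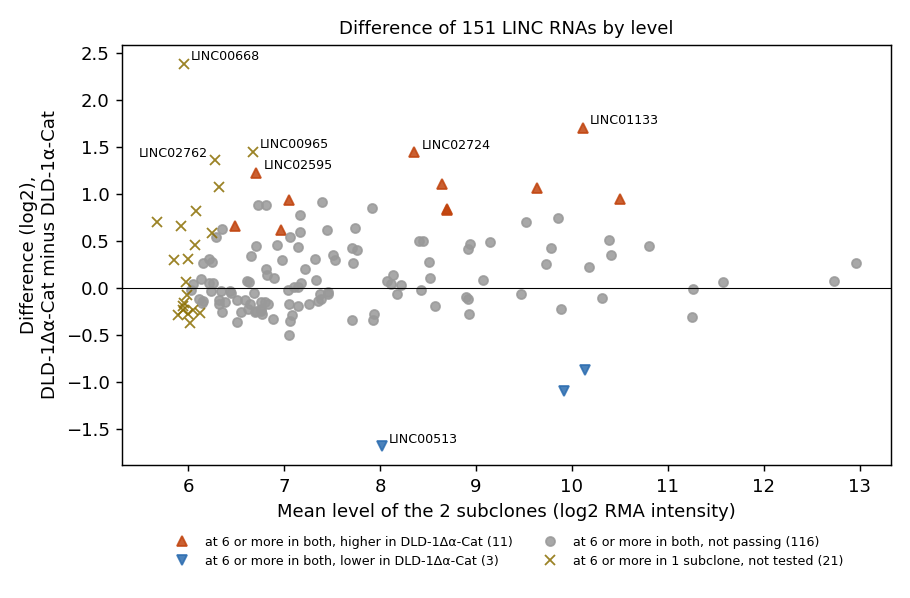
Difference (log2, DLD-1Δα-Cat minus DLD-1α-Cat) against the mean level of the 2 subclones (log2 RMA intensity) for the 151 LINC RNAs. Triangles passed the test and grey points did not. Crosses are the 21 genes at 6 or more in 1 subclone only, labelled not tested because their test results are not used. Most genes lie within 0.5 of 0, and the 14 that passed are spread from a level of about 6.5 to above 10.

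Of the other 116 tested genes, 62 had a positive and 54 a negative difference, with values from -0.50 to 0.92, and none passed, though 26 had an unadjusted p under 0.05. Of these, 57 differed by less than 0.2. The adjusted p lay between 0.05 and 0.1 in 10, of which 9 were positive. LINC01138 was the nearest, with 11.14, 11.02 and 10.93 in DLD-1Δα-Cat, against 10.47, 10.67 and 10.60 in DLD-1α-Cat (difference 0.45, adjusted p = 0.0541). LINC01697 read 7.93, 7.30 and 7.41 in DLD-1Δα-Cat, against 6.91, 6.85 and 6.57 in DLD-1α-Cat (difference 0.77, adjusted p = 0.0578). In both genes the arrays did not overlap, and with the replicate number as a block LINC01697 passed (adjusted p = 0.0416) and LINC01138 did not (0.0756). The 1 negative gene was LINC03068, with 6.95, 6.60 and 6.84 in DLD-1Δα-Cat, against 7.52, 7.11 and 7.28 in DLD-1α-Cat (difference -0.50, adjusted p = 0.0965), and it passed with the block (adjusted p = 0.0352). LINC02035 (difference 0.74, adjusted p = 0.113) and LINC00938 (difference 0.51, adjusted p = 0.107) also passed with the block (adjusted p = 0.0425 and 0.0397).

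Several differences of nearly 1 did not pass in the fit without a block, and their arrays were widely spread. LINC00663 read 7.62, 8.18 and 7.76 in DLD-1Δα-Cat, against 6.08, 7.27 and 7.46 in DLD-1α-Cat (difference 0.92, SE 0.352, adjusted p = 0.197). LINC00310 read 7.37, 7.48 and 6.65 in DLD-1Δα-Cat, against 6.05, 7.12 and 5.69 in DLD-1α-Cat (difference 0.88, SE 0.380, adjusted p = 0.245). LINC02888 read 7.96, 6.63 and 7.17 in DLD-1Δα-Cat, against 6.86, 5.75 and 6.50 in DLD-1α-Cat (difference 0.89, SE 0.382, adjusted p = 0.244). In LINC02888 the replicate numbers ranked the same way in both subclones, and in LINC00310 replicate 3 was the lowest of each. With the replicate number as a block, LINC02888 passed (adjusted p = 0.0229), while LINC00310 (0.0709) and LINC00663 (0.102) did not. LINC00942 read 8.61, 8.33 and 8.06 in DLD-1Δα-Cat, against 7.90, 7.01 and 7.55 in DLD-1α-Cat (difference 0.85, SE 0.240, adjusted p = 0.0934, and 0.0615 with the block).

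None of the 5 brightest genes passed the test. LINC02086 read 13.05, 13.17 and 13.04 in DLD-1Δα-Cat, against 12.71, 12.98 and 12.76 in DLD-1α-Cat (difference 0.27, adjusted p = 0.220). LINC00467, whose transcript is known to encode a micropeptide of mitochondria that carries the name ASAP, read 11.73, 11.35 and 11.72 in DLD-1Δα-Cat, against 11.85, 11.36 and 11.41 in DLD-1α-Cat (difference 0.06, adjusted p = 0.865). LINC02210 read 11.20, 10.85 and 11.25 in DLD-1Δα-Cat, against 11.56, 11.21 and 11.48 in DLD-1α-Cat (difference -0.31, adjusted p = 0.281). The arrays of LINC00467 and LINC02210 overlapped, while all 3 DLD-1Δα-Cat arrays of LINC02086 lay above those of DLD-1α-Cat. LINC00467 changed sign in 4 of the 6 fits without 1 array, and LINC02210 differed by 0.11 with the mean of its probe sets. LINC00623 (12.75, 12.77 and 12.77 in DLD-1Δα-Cat, against 12.67, 12.70 and 12.70 in DLD-1α-Cat, adjusted p = 0.660) and LINC00621 (11.24, 11.23 and 11.30 in DLD-1Δα-Cat, against 11.37, 11.23 and 11.21 in DLD-1α-Cat, adjusted p = 0.951) were read by probe sets that can also bind other transcripts. Their spread was small, and the arrays overlapped in LINC00621 but not in LINC00623.

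Genes known from other work on colon and carcinoma cells were also measured. LINC00261, an RNA beside FOXA2 that is known from endoderm development, read 6.34, 7.29 and 7.16 in DLD-1Δα-Cat, against 6.44, 6.30 and 6.73 in DLD-1α-Cat (difference 0.44, adjusted p = 0.365). LINC00857 read 9.08, 9.19 and 9.08 in DLD-1Δα-Cat, against 8.69, 9.09 and 9.32 in DLD-1α-Cat (difference 0.09, adjusted p = 0.791). LINC01116 read 8.28, 8.63 and 9.04 in DLD-1Δα-Cat, against 8.14, 8.39 and 8.60 in DLD-1α-Cat (difference 0.27, adjusted p = 0.490). The arrays of all 3 overlapped. They were named after their values had been seen.

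The spread within a subclone was wider in these RNAs than in genes at large. The median SD over the 3 arrays was 0.181 in DLD-1Δα-Cat, against 0.260 in DLD-1α-Cat for the 151 genes, and 0.124 in DLD-1Δα-Cat, against 0.171 in DLD-1α-Cat for all 19775. The 19775 include 6623 genes under 6 in both subclones, while each of the 151 reached 6 in at least 1. No set matched by level was compared, here or for the shares of arrays that follow. The array of DLD-1α-Cat replicate 1 was the highest of the 6 in 50 of the 151 (33.1%, against 29.1% of all genes) and the lowest in 36 (23.8%). DLD-1α-Cat replicate 3 was the highest in 10 (6.62%, against 20.0% of all genes) and the lowest in 37 (24.5%, against 13.2%). Among the 54 negative differences that did not pass, DLD-1α-Cat replicate 1 was the highest array in 37, and among the 62 positive ones in 4. A split by sign favours such a contrast by itself, and its shares over all genes are not given. These 2 counts are therefore only described. DLD-1α-Cat replicate 1 also had the lowest array weight, 0.431. The widest spread was that of LINC02254, with 6.07, 7.54 and 5.23 in DLD-1Δα-Cat, against 5.06, 7.38 and 5.63 in DLD-1α-Cat. Replicate 2 was the highest array in both subclones, and the SD was 1.17 in DLD-1Δα-Cat, against 1.21 in DLD-1α-Cat, several times the difference of 0.26.

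**Figure D3:**
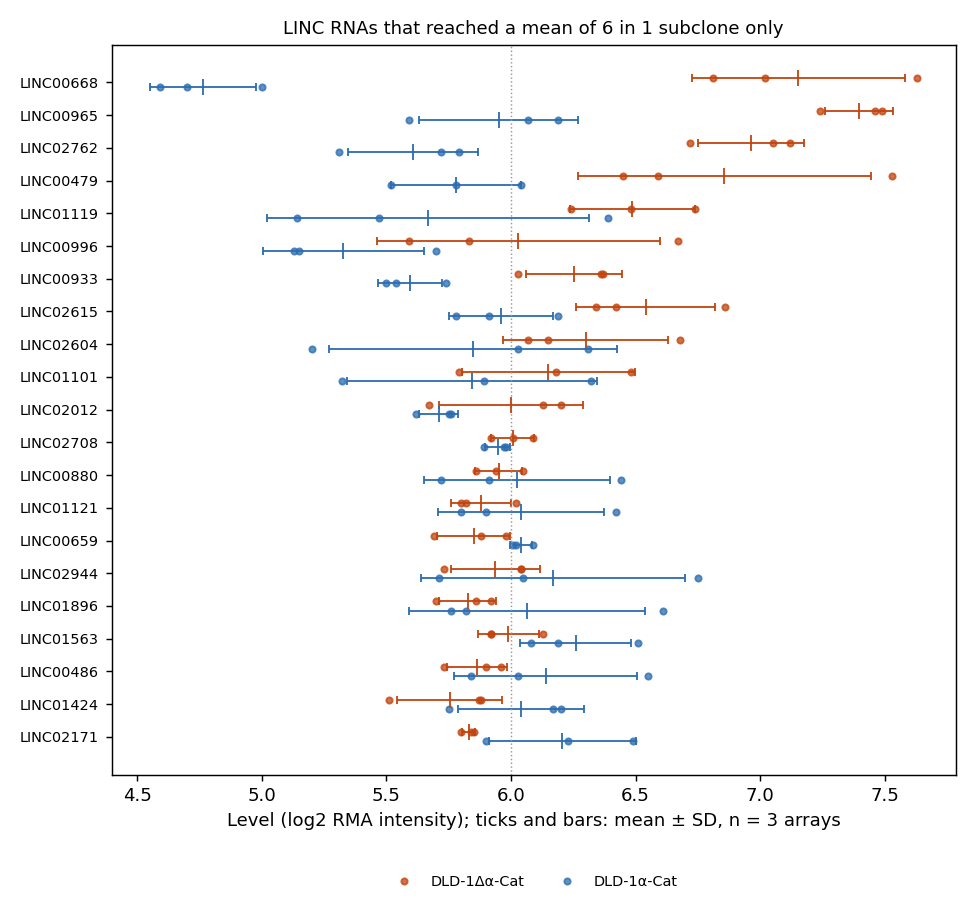
Level (log2 RMA intensity) of the 21 LINC RNAs with a mean of at least 6 (dotted line) in 1 subclone only, with DLD-1Δα-Cat in orange and DLD-1α-Cat in blue; points are arrays, ticks and bars are the mean ± SD (n = 3 arrays). The upper 12 rows reached 6 in DLD-1Δα-Cat, with differences from 0.06 to 2.39, and the lower 9 in DLD-1α-Cat, with differences from -0.38 to -0.08.

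The 21 genes that reached 6 in 1 subclone only had to differ to be selected, so their values are a description. They were part of the limma fit over all genes, but their results in it are not used. LINC00668, reported to promote growth in several carcinomas, had the largest difference. It read 7.63, 6.81 and 7.02 in DLD-1Δα-Cat, against 5.0, 4.59 and 4.70 in DLD-1α-Cat, which is 2.39 on the log2 scale. The lowest DLD-1Δα-Cat array was 1.81 above the highest DLD-1α-Cat array. LINC00965 read 7.46, 7.49 and 7.24 in DLD-1Δα-Cat, against 5.59, 6.19 and 6.07 in DLD-1α-Cat, a difference of 1.45 without overlap.

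LINC02762 read 7.05, 6.72 and 7.12 in DLD-1Δα-Cat, against 5.31, 5.72 and 5.79 in DLD-1α-Cat (difference 1.36). Its other probe set pointed the other way, with a difference of -0.33, and with the mean of both probe sets the difference was 0.51 (0.514). LINC00479 read 6.45, 6.59 and 7.53 in DLD-1Δα-Cat, against 6.04, 5.52 and 5.78 in DLD-1α-Cat, a difference of 1.08 in which DLD-1Δα-Cat replicate 3 stood highest. LINC01119 read 6.74, 6.48 and 6.24 in DLD-1Δα-Cat, against 5.14, 6.39 and 5.47 in DLD-1α-Cat (difference 0.82). LINC00996 read 5.83, 6.67 and 5.59 in DLD-1Δα-Cat, against 5.15, 5.70 and 5.13 in DLD-1α-Cat (difference 0.70). In both of these genes the arrays overlapped, and in LINC00996 1 array carried the DLD-1Δα-Cat mean past 6: without DLD-1Δα-Cat replicate 2 the difference was 0.38.

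LINC00933 read 6.36, 6.03 and 6.37 in DLD-1Δα-Cat, against 5.54, 5.74 and 5.50 in DLD-1α-Cat (difference 0.66). LINC02615 read 6.42, 6.86 and 6.34 in DLD-1Δα-Cat, against 5.78, 6.19 and 5.91 in DLD-1α-Cat (difference 0.58). Neither overlapped. The other 4 of the 12 differed by 0.06 to 0.45. Arrays did not overlap in 6 of the 12, beside 32.5% of all genes at 6 or more in both subclones. Selection through 1 subclone makes such separation more likely, so the count is only described.

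The 9 genes that reached 6 in DLD-1α-Cat only lay close to the limit in both subclones. LINC02171 read 5.85, 5.84 and 5.80 in DLD-1Δα-Cat, against 6.49, 5.90 and 6.23 in DLD-1α-Cat (difference -0.38). LINC00659 read 5.69, 5.88 and 5.98 in DLD-1Δα-Cat, against 6.02, 6.01 and 6.09 in DLD-1α-Cat (difference -0.19). These were the 2 of the 9 without overlap, again beside 32.5% of all genes at 6 or more in both subclones. The others were LINC01424 (-0.29), LINC00486 (-0.28), LINC01563 (-0.26), LINC01896 (-0.24), LINC02944 (-0.23), LINC01121 (-0.16) and LINC00880 (-0.08), each with overlapping arrays. Without DLD-1α-Cat replicate 1 alone, LINC01896 (0.04), LINC02944 (0.06) and LINC01121 (0.03) changed sign. The differences of LINC00486 (-0.07) and LINC01563 (-0.14) shrank by over 1.5 times in that fit. The direction of LINC00880 also rested on DLD-1α-Cat replicate 1 (6.44). Its DLD-1α-Cat replicates 2 and 3 (5.72 and 5.91) lay below its DLD-1Δα-Cat mean of 5.948. DLD-1α-Cat replicate 1 was the highest array of LINC02171 too, at 6.49. Every gene of the 21 with a difference of over 0.5 was higher in DLD-1Δα-Cat.

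By chromosome, the genes were most numerous on chromosome 1, with 24 and a median difference of 0.07, and on chromosome 2, with 14 and a median of 0.10. Chromosome 21 held 7, with a median of 0.70 and 5 positive, beside a median of 0.04 (0.044) over its 147 genes at the level. The 5 positive ones were LINC00479 (1.08), LINC00310 (0.88), LINC01697 (0.77), LINC00205 (0.70) and LINC00334 (0.54), and none of the 4 that could be tested passed without a block (LINC01697 passed with it, as above). On chromosome 17 the 10 genes had a median of -0.18. These medians include genes that reached 6 in 1 subclone only and had to differ to be selected. On chromosome 21 these were LINC00479 and LINC01424 (-0.29). Chromosome 21 was named after its values had been seen, so its median is only described.

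**Figure D4:**
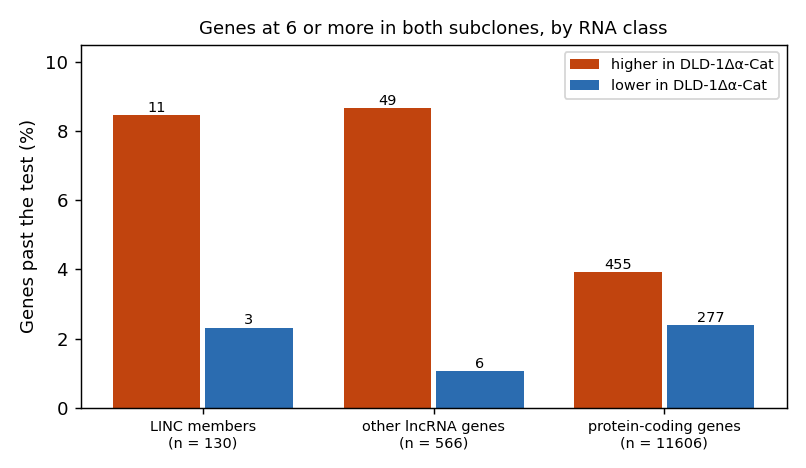
Share (%) of genes at 6 or more in both subclones that passed the test as higher (orange) or lower (blue) in DLD-1Δα-Cat, by RNA class; numbers on the bars are gene counts. Of the LINC genes 8.46% were higher and 2.31% lower, of other long noncoding RNA genes 8.66% and 1.06%, and of protein-coding genes 3.92% and 2.39%.

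At the same level, the share of LINC genes higher in DLD-1Δα-Cat (8.46%) was near that of other long noncoding RNA genes, and the share lower (2.31%) was near that of protein-coding genes. Of 566 other long noncoding RNA genes, 49 were higher (8.66%) and 6 lower (1.06%), with a median difference of 0.15 (0.149). Of 11606 protein-coding genes, 455 were higher (3.92%) and 277 lower (2.39%), with a median of 0.00. The classes share the same arrays and their difference was not tested. The β-actin ratio above moved with the groups here too.

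Of 40 well-known long noncoding RNAs with other kinds of names, 33 were measured, 3 passed as higher and 2 as lower, and the median difference was 0.02 (0.022). Among all 19775 genes, 3.84% passed as higher and 1.67% as lower. MIR31HG, the host gene of the microRNA miR-31, read 8.71, 8.15 and 7.92 in DLD-1Δα-Cat, against 5.20, 3.93 and 4.86 in DLD-1α-Cat (difference 3.59, SE 0.338, adjusted p = 0.00171). MIR100HG, the host of miR-100 and let-7a, read 9.94 to 10.20 on the 3 DLD-1Δα-Cat arrays, against 8.52 to 8.70 in DLD-1α-Cat (difference 1.44, SE 0.110, adjusted p = 0.000792). UCA1, an RNA first described in bladder cancer, read 10.60, 10.18 and 10.07 in DLD-1Δα-Cat, against 12.24, 12.59 and 12.32 in DLD-1α-Cat (difference -2.10, SE 0.165, adjusted p = 0.000847). In all 3 the subclones were far apart compared with the spread of their arrays. EPB41L4A-AS1 was higher by 0.53 (adjusted p = 0.0208) and DLEU2, the host of miR-15a and miR-16, lower (difference -1.31, adjusted p = 0.00588). Both lost the call with the mean of their probe sets (adjusted p = 0.0976 and 0.109). With the β-actin ratio as covariate the adjusted p was 0.0871 for MIR31HG, 0.0690 for MIR100HG and 0.0666 for UCA1. MALAT1, an abundant RNA of nuclear speckles, differed by -0.03 (adjusted p = 0.924). Of 19 host genes of small nucleolar RNAs 6 were measured and 0 passed limma's test (2 at an unadjusted p under 0.05), with differences from -0.31 to 0.31. Of all genes, 5.52% passed in either direction.

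Since some LINC RNAs act on genes beside them, the nearest measured gene on each side was compared. The 151 genes had 295 such neighbours, and 20 of them passed (6.78%, 15 higher and 5 lower), against 5.52% of all genes. Of the 285 that were not themselves among the 151, 18 passed (6.32%, 13 higher and 5 lower). Of the 27 neighbours of the 14 genes that passed, 1 did. Over 291 pairs the difference of the LINC gene and that of its neighbour correlated at 0.083 (Pearson), a description over pairs that share the same 6 arrays. Of the 18 pairs with a passing neighbour, 10 had the same sign. The count of 20 was 12, 8 and 7 without DLD-1Δα-Cat replicate 1, 2 and 3, 12 and 6 without DLD-1α-Cat replicate 1 and 3, and 1 with the β-actin ratio as covariate. In 21 of 301 pairs the gene bounds overlap, so probe sets of the pair may share transcripts.

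**Figure D5:**
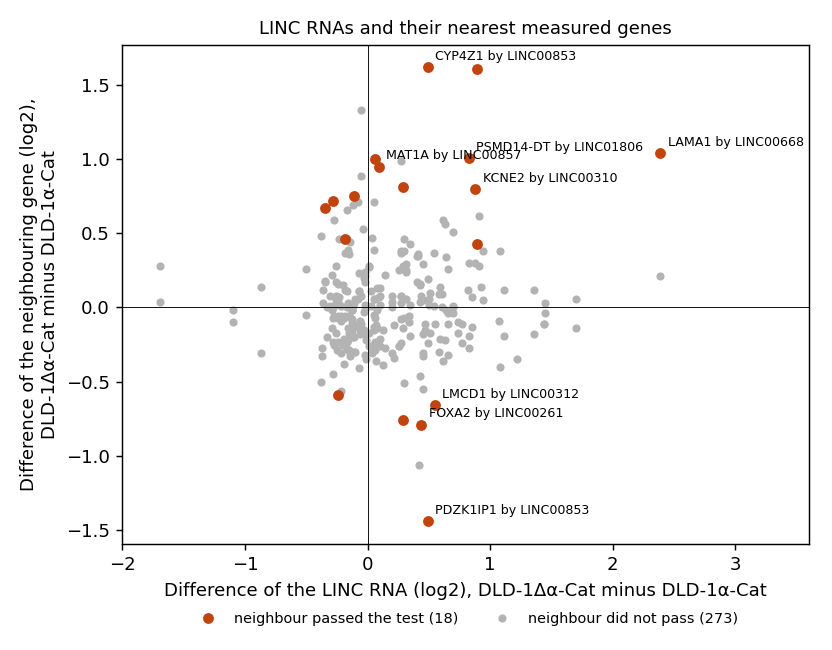
Difference (log2, DLD-1Δα-Cat minus DLD-1α-Cat) of the nearest measured gene against that of the LINC RNA for 291 pairs; orange points are neighbours that passed the test (18) and grey points did not (273). The points do not line up along a diagonal, and LAMA1 beside LINC00668 lies farthest to the right among the orange points.

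The 1 passing neighbour of a passing LINC gene was PSMD14-DT, the divergent transcript of the proteasome gene PSMD14, beside LINC01806. It read 6.16, 5.99 and 6.51 in DLD-1Δα-Cat, against 5.16, 4.92 and 5.56 in DLD-1α-Cat (difference 1.01, SE 0.198, adjusted p = 0.0314), and the bounds of both genes overlap. It passed in 1 of the 6 fits without 1 array, with adjusted p up to 0.0952. PSMD14 itself, on the other side, differed by -0.19 (adjusted p = 0.301). LAMA1, the gene of laminin α1, a basement membrane chain, lies beside LINC00668. It read 6.49, 6.35 and 7.01 in DLD-1Δα-Cat, against 5.52, 5.75 and 5.45 in DLD-1α-Cat (difference 1.04, SE 0.184, adjusted p = 0.0212). The call was lost without DLD-1Δα-Cat replicate 1 (adjusted p = 0.0514), without DLD-1α-Cat replicates 1 (0.0538) and 3 (0.0982), and with the replicate block (0.0510). ARHGAP28, on the other side of LINC00668, differed by 0.21 (adjusted p = 0.663).

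None of the other neighbours of the largest differences passed. Beside LINC01133, SLAMF9 differed by 0.06 (adjusted p = 0.880) and PIGM by -0.14 (adjusted p = 0.530). SLAMF9 was dim, with means of 4.71 in DLD-1Δα-Cat, against 4.65 in DLD-1α-Cat, and its gene bounds overlap those of LINC01133. Beside LINC02724, the kinase gene RPS6KA4 differed by -0.11 (adjusted p = 0.562) and the transporter gene SLC22A11 by -0.11 (adjusted p = 0.699). SLC22A11 was dim too, with means of 4.81 in DLD-1Δα-Cat, against 4.92 in DLD-1α-Cat. Beside LINC00460, the ephrin gene EFNB2 differed by -0.02 (adjusted p = 0.944). Beside LINC00513, MKLN1 differed by 0.04 (adjusted p = 0.882).

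Other passing neighbours lay beside LINC genes that did not pass, and the ones named here were picked after their values had been seen. FOXA2, a transcription factor of endoderm beside LINC00261, read 6.83, 6.59 and 6.74 in DLD-1Δα-Cat, against 7.43, 7.33 and 7.75 in DLD-1α-Cat (difference -0.79, SE 0.136, adjusted p = 0.0201), while LINC00261 differed by 0.44. KCNE2, a potassium channel subunit beside LINC00310, read 7.91, 8.16 and 7.94 in DLD-1Δα-Cat, against 7.31, 7.33 and 6.98 in DLD-1α-Cat (difference 0.80, adjusted p = 0.0175). LINC00853 lies between a passing gene on either side. PDZK1IP1, a small membrane protein, read 6.50, 6.67 and 7.35 in DLD-1Δα-Cat, against 8.24, 8.29 and 8.32 in DLD-1α-Cat (difference -1.44, adjusted p = 0.0110). CYP4Z1, a cytochrome P450 gene that is dim in both, read 4.87, 5.22 and 4.37 in DLD-1Δα-Cat, against 3.36, 3.12 and 3.12 in DLD-1α-Cat (difference 1.62, adjusted p = 0.00664). LINC00853 itself, at 9.38, 9.33 and 9.47 in DLD-1Δα-Cat against 8.76, 9.12 and 8.83 in DLD-1α-Cat, differed by 0.49 (adjusted p = 0.0659). MAT1A, a methionine adenosyltransferase gene beside LINC00857, read 6.26, 6.18 and 6.13 in DLD-1Δα-Cat, against 5.41, 5.14 and 5.17 in DLD-1α-Cat (difference 0.95, adjusted p = 0.00436). AHR, the aryl hydrocarbon receptor gene beside LINC02888, read 12.22, 12.26 and 12.23 in DLD-1Δα-Cat, against 11.77, 11.89 and 11.76 in DLD-1α-Cat (difference 0.43, adjusted p = 0.0396). On the other side of LINC02888, with overlapping gene bounds, the noncoding RNA gene LOC105375172 read 9.30, 9.62 and 9.29 in DLD-1Δα-Cat, against 7.5, 8.27 and 7.60 in DLD-1α-Cat (difference 1.61, SE 0.213, adjusted p = 0.00723). Of the 6 fits without 1 array, CYP4Z1, MAT1A and LOC105375172 passed in 6, PDZK1IP1 in 5, FOXA2 and KCNE2 in 3 and AHR in 1.

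In 11 pairs the start of a LINC gene lay within 1000 bases of the start of a gene on the opposite strand, a head-to-head arrangement in which both may share a promoter region. Of these 11 partners 0 passed the limma test, against 5.52% of all genes, and 3 had an unadjusted p under 0.05. LINC00513 and LINC-PINT, an RNA induced by p53, start 154 bases apart. LINC-PINT averaged 10.39 in DLD-1Δα-Cat, against 10.12 in DLD-1α-Cat (difference 0.28, SE 0.189, adjusted p = 0.436), beside the -1.69 of LINC00513. LINC02482 and MRFAP1L2 start 194 bases apart, and MRFAP1L2 averaged 13.22 in DLD-1Δα-Cat, against 12.84 in DLD-1α-Cat (difference 0.38, SE 0.0928, adjusted p = 0.0629), beside the 0.94 of LINC02482. LINC00205 and POFUT2, an O-fucosyltransferase gene, start 157 bases apart and differed by 0.70 (adjusted p = 0.319) and 0.01 (adjusted p = 0.970). Whether the LINC gene and its partner differed from each other was not tested.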

How the data were processed

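Values were log2 intensities of 54675 probe sets on 6 arrays, which the authors made by RMA; per the submitters' processing notes the program was Affymetrix Expression Console, and no version is given in the sources used here. RMA makes the arrays equal in overall brightness, which hides a shift shared by all RNAs, and a fold against a dim group is a fold on this scale. Groups and replicate numbers come from the sample titles.

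Control probe sets (62) were dropped. In the platform annotation 41091 probe sets have 1 symbol, 1801 have several and 11721 are not listed. Each of 19775 genes was read from its brightest probe set (highest mean over the 6 arrays), with no filter on dim genes. The subclones were tested per gene by limma 3.58.1 under R 4.3.3 (lmFit and eBayes, no covariate, two-sided, Benjamini-Hochberg over all genes, threshold 0.05), a method tested on simulated data. Precision is limited by having 3 arrays for each subclone. Probe sets beyond the brightest took their adjusted p from a fit of every probe set.

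The LINC genes, the comparison lists and the tests were chosen with earlier results of these data known. Genes named with array values were those that passed at 6 or more in both subclones (at most 12 per direction), the 8 largest differences per direction among those at 6 in 1 subclone, the 5 brightest, the genes at the limit, passing neighbours of these, and passing list members. Others were named after their values were seen: the genes near the threshold or with wide spread, those known from colon, the genes of chromosome 21, head-to-head partners and further neighbours. A neighbour is the nearest measured gene on each side in RefSeq gene order (GRCh38.p14, used for names and order). Promoter windows are RefSeq's, 300 bases, with the first listed start per gene, and motif sites were counted on both strands.

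Same-numbered arrays of both subclones deviated from their group means together, with correlations of 0.225, 0.376 and 0.122 over genes, each above 0.1. For each DLD-1Δα-Cat array, the best partner among the DLD-1α-Cat arrays was the one with its number. The best partner of each DLD-1α-Cat array was not looked up. On this basis in the data, with no design stated, the numbers were taken to pair the samples, and a fit with them as a replicate block was run as an alternative to the unpaired test reported. The others were leaving out each array, array weights, eBayes with trend and robust estimation, no moderation, quantile normalization again, centring on the array median, a fit of genes past the level only, every probe set, the mean of probe sets, levels of 5 and 7, and the β-actin ratio as a covariate.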

Additional observations from a re-analysis of the deposited data

Results flagged for a closer look

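Probe sets that the annotation assigns to a LINC gene together with other genes were outside the comparison, since they have no single symbol. There were 47, and 2 of them passed limma's test over all probe sets, both higher in DLD-1Δα-Cat. The share of all probe sets that passed is not given, so this count cannot be set against it. The probe set shared by LINC01296, DUXAP10 and DUXAP8, the last 2 of which are double homeobox pseudogenes, read 8.15, 8.71 and 7.98 in DLD-1Δα-Cat, against 4.70, 4.94 and 4.36 in DLD-1α-Cat (difference 3.61, SE 0.224, adjusted p = 0.000537). The probe set shared by LINC01296 and DUXAP10 read 7.01, 7.22 and 7.13 in DLD-1Δα-Cat, against 4.32, 4.37 and 4.39 in DLD-1α-Cat (difference 2.76, SE 0.106, adjusted p = 4.9e-05). Both differences are larger than that of any of the 151 genes, and which of the genes gave the signal cannot be told apart.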

How the results depend on the processing

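Against 11 higher, 3 lower and 20 passing neighbours, limma without moderation passed 0, 0 and 0 (28, 4 and 66 at an unadjusted p under 0.05), and the β-actin covariate, chosen after seeing the data, passed 0, 0 and 1. Leaving out 1 array gave 3 to 14 higher, 1 to 4 lower and 6 to 22 neighbours. Without DLD-1Δα-Cat replicates 1, 2 and 3 the neighbours were 12, 8 and 7, and without DLD-1α-Cat replicates 1 and 3 they were 12 and 6. Array weights gave 34 neighbours and trend with robust estimation 31. A level of 7 gave 7 higher of 69, and a level of 5 gave 14 of 235. With the replicate block, which follows the pairing by number, 13 higher (9 of them shared), 4 lower and 27 neighbours passed. It ended the calls of LINC01191, LINC01806, LAMA1 and IARS1 (0.0599), the last beside LINC00475, and gave calls to LINC02888, LINC01697, LINC02035, LINC00938 and LINC03068. LINC01003, LINC01191 and LINC01806 lost the call when every probe set was tested (adjusted p = 0.0558, 0.0624 and 0.0531) and with quantile normalization again (0.0781, 0.0521 and 0.0564), and LINC01191 with array weights (0.0582). For 42 named genes under 16 settings (672 values), 99 no longer passed and 6 moved by more than the spread. Only genes that passed in the fit reported here could lose a call. The 672 also hold values of genes that did not pass or whose test was not used, so they are not the base for the 99. Without moderation 20 of the named genes no longer passed, and with the β-actin covariate 20. Among these 42 genes the sign turned 11 times in 6, none of them called. They were LINC01896, LINC02944 and LINC01121 without DLD-1α-Cat replicate 1, and LINC00467, LINC00621 and LINC02210, which did not pass. The causes were not tested. No scaling moved the median of all genes (-0.030) by over 0.1.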

Other observations

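Among the 687 LINC genes under 6 in both subclones, where values cannot be told from background without detection calls, 3 were higher and 2 lower (0.728% in all), against 1.69% of all 6623 genes under 6. LINC01933 read 4.81, 5.07 and 4.88 in DLD-1Δα-Cat, against 3.76, 3.61 and 3.83 in DLD-1α-Cat (difference 1.18, SE 0.113, limma adjusted p = 0.00187), and passed in each of the 6 fits without 1 array. LINC00648 read 5.32, 5.08 and 4.94 in DLD-1Δα-Cat, against 4.21, 4.32 and 3.74 in DLD-1α-Cat (difference 1.02, limma adjusted p = 0.0199). LINC00847 was higher by 0.67 (limma adjusted p = 0.0155). The lower ones were LINC00572 (difference -0.93, limma adjusted p = 0.0346) and LINC02366 (difference -0.63, limma adjusted p = 0.0333). In all 5 the values of the subclones were without overlap.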
